A study of Drosophila melanogaster with 5 samples.

Results

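The 8 Hox genes of Drosophila melanogaster, lab, pb, Dfd, Scr, Antp, Ubx, abd-A and Abd-B, were examined in ATAC-seq libraries of nuclei sorted from adult fly heads. The members were all regions of the authors' comparison table whose nearest-gene symbol is one of these names, 41 of 80590 regions, together with every peak of the 5 deposited peak lists that shares at least 1 bp with such a region. All 41 regions lie on chromosome arm 3R. The dopamine group held 2 libraries, in which TH-Gal4 drove a nuclear GFP, and the GABA group held 3 libraries, in which vGAT-Gal4 drove it. TH-Gal4 and vGAT-Gal4 carry control sequences of the genes for tyrosine hydroxylase, which makes the dopamine precursor, and for the vesicular GABA transporter. In both groups the flies were adults kept at 25 °C, the heads were broken off after 5 min of freezing at a low temperature, the labelled nuclei were collected by flow cytometry from many pooled heads, and the DNA was exposed to the Tn5 transposase for 23 min at 37 °C. The sex and age of the flies and the copy number of the transgenes in these libraries are not given in the sources used here, and the labels do not say whether libraries of a group came from separate fly cultures, so every p-value measures the spread between these libraries, which may be technical.

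Hox genes encode homeodomain transcription factors that give the segments of an animal their identity, and their order along the chromosome follows the order of the body parts they pattern. In the fly they are split into the Antennapedia complex, which serves the head and the anterior thorax, and the bithorax complex, which serves the posterior thorax and the abdomen. Outside their own segments the genes are held silent by Polycomb group proteins, which act through response elements in both complexes, while trithorax group proteins maintain the active state. Since only heads were used, the nuclei included none of the thoracic and abdominal ganglia, where the genes of the bithorax complex are known to be expressed in neurons. Tn5 cuts open chromatin whether or not the gene nearby is transcribed, so openness at a Hox gene was measured here and its expression was not.

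The dopamine lists were shorter, with 69464 and 69940 peaks, than the GABA lists, with 84055, 81638 and 107219, and a peak was present at 40.5% and 40.4% of all regions in the dopamine lists and at 49.5%, 49.2% and 60.2% in the GABA lists. The scale of the lists differed too, since the highest fold enrichment of a whole list was 8.49 and 11.2 in dopamine and 21.5, 19.9 and 16.0 in GABA. Fold enrichment is the height of a peak over the local background as MACS2 estimates it, and the settings of peak calling are not given in the sources used here. For the test, the log2 fold enrichments were therefore quantile normalized, which gives every library the same distribution of levels over the 16601 regions with a peak in all 5 lists. Across these regions the normalized levels correlated with r = 0.90 between the dopamine libraries, 0.87 to 0.93 between the GABA libraries and 0.34 to 0.44 between neuron types. At the markers of the labelled cell types, 5 of the 5 fitted regions of Gad1, VGAT and Lim3 were higher in GABA. For ple, DAT, Vmat and Ddc, 2 of 6 were higher in dopamine and none was higher in GABA. Over all fitted regions, 27.8% were higher in GABA and 25.3% in dopamine. Vmat, the vesicular monoamine transporter gene, had 3 regions and none with a peak in all 5 lists. By fold enrichment, its highest peak stood at percentile 24.2 of the list of dopamine library 1. Dopamine library 2 had no Vmat peak, and the GABA libraries had it at 53.7, 53.4 and 63.2. The highest ple peak stood at 99.95 and 99.96 in dopamine and at 79.3, 75.7 and 85.1 in GABA. At DAT and Ddc these percentiles overlapped between the neuron types.

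The Hox complexes held few regions for their size. The Antennapedia complex, from the left edge of lab to the distal end of Antp, spans 337.8 kb and held 57 regions of any gene, or 1.69 regions per 10 kb, and the bithorax complex, from Ubx to Abd-B, spans 315.6 kb and held 35 regions, or 1.11 per 10 kb. Chromosome arm 3R as a whole held 6.39 regions per 10 kb. The longest stretch without a region was 31.7 kb in the Antennapedia complex, inside pb, and 47.7 kb in the bithorax complex, from the second intron of Ubx across its start site to the neighbouring noncoding gene lncRNA:bxd. Peaks covered 3.18% and 3.33% of the 8 gene spans with 2 kb on each side in the dopamine libraries and 3.30%, 3.97% and 3.56% in the GABA libraries. On the whole arm they covered 8.54% and 8.88% in dopamine and 8.90%, 8.72% and 11.2% in GABA, so that all 5 libraries had less of the Hox spans than of the arm under peaks.

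The genes differed widely in how many regions they held. Ubx, which specifies the hindthorax and the haltere, had 2 regions in 77.8 kb, or 0.257 per 10 kb, and Antp, the gene of the middle thorax, had 6 in 103.0 kb, or 0.583 per 10 kb. pb, which is needed for the adult mouthparts, had 2 regions in 34.3 kb, or 0.584 per 10 kb. Among the 1820 genes with a region and a span of at least 10 kb, whose median was 4.13 regions per 10 kb, these densities ranked at the percentiles 1.15 for Ubx, 5.27 for Antp and 5.33 for pb. The gene abd-A, which patterns the abdomen, held 0.876 regions per 10 kb and Scr, the gene of the labial and prothoracic segments, held 1.49. Abd-B, the gene of the posterior abdomen, held 2.89 with 13 regions in 45.0 kb. The remaining genes, lab with 4.08 and Dfd with 4.72, were near the median, and both are genes of head segments and the shortest of the 8. The order of density therefore did not follow the order along the complexes. Counting instead every region inside the gene span and 2 kb on each side, whichever gene it was assigned to, gave 12 regions for Antp, 7 for Ubx and 6 for pb.

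**Figure D1:**
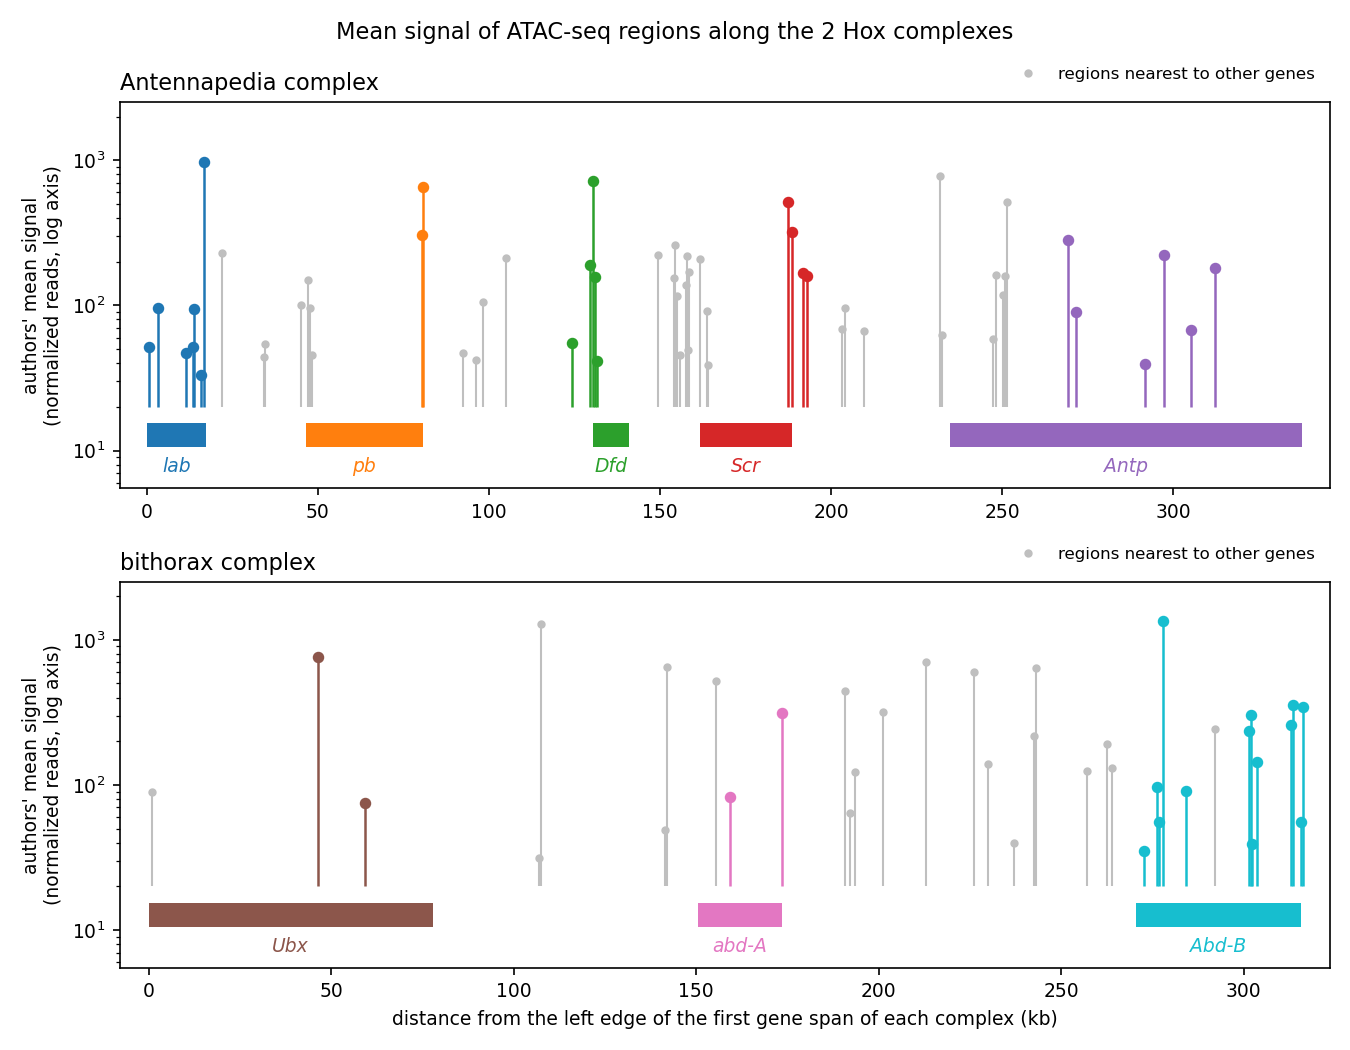
Authors' mean signal, pooled over the 5 libraries (normalized reads, log axis), at each region along the Antennapedia and bithorax complexes, by distance in kb from the left edge of the first gene span. Coloured stems are the regions of each Hox gene, grey stems are regions nearest to other genes and bars are the gene spans. The highest Hox stem of each complex is lab 7 with 967 and Abd-B 4 with 1348.

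The few regions were stronger by the median, but not throughout, since 28 of the 41 reached the median signal of all regions. The authors' mean signal, in which read counts were scaled by size factors and pooled over the libraries, had a median of 157 over the Hox regions and of 81.0 over all regions. A peak was called in all 5 lists at 16 Hox regions, or 39.0%, where 20.6% of all regions had one. These 16 regions had a median signal of 333 and a median width of 369 bp, against 74.8 and 136 bp for the other 25, and no list held a peak at 3 regions, or 7.32%, where 19.5% of all regions had none. Of the 41 regions, 24 were annotated as promoter (within 2 kb of a start site), 13 as intron, 3 as distal intergenic and 1 as 3′ UTR. The share of promoters was 58.5% for the Hox genes and 56.1% for all regions. Regions are numbered below from left to right within each gene, so that lab 7 is the rightmost region of lab.

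Peaks in every list of one neuron type and none of the other occurred at few Hox regions, at shares near those of all regions. A peak shared by the dopamine lists and missing from every GABA list occurred at 3 Hox regions (7.32%, against 8.42% of all regions), and all of these belonged to lab. Among them lab 4 and lab 5 lie under the same peak. A peak in all 3 GABA lists and in no dopamine list occurred at 4 Hox regions (9.76%, against 13.2% of all regions), Scr 3, abd-A 1, Abd-B 9 and Abd-B 12. These counts depend on dopamine library 2, without which the dopamine-only count was 6 (14.6%, against 10.5% of all regions) and the GABA-only count was 7 (17.1%, against 16.1%). A peak in at least 1 dopamine list and no GABA list, as at 12.4% of all regions, occurred at 6 of the 24 regions of the Antennapedia complex and at 0 of the 17 regions of the bithorax complex. A peak in at least 1 GABA list and no dopamine list, as at 33.8% of all regions, occurred at 3 and 9 regions. Of these 9, Ubx 2, Abd-B 1, Abd-B 2 and Abd-B 5 had a peak in a single GABA list, and of the 6, lab 3, Dfd 1 and Antp 2 had one in a single dopamine list. Whether an interval is present in more of the sorted nuclei or more open in each of them cannot be told apart in pooled nuclei.

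**Figure D2:**
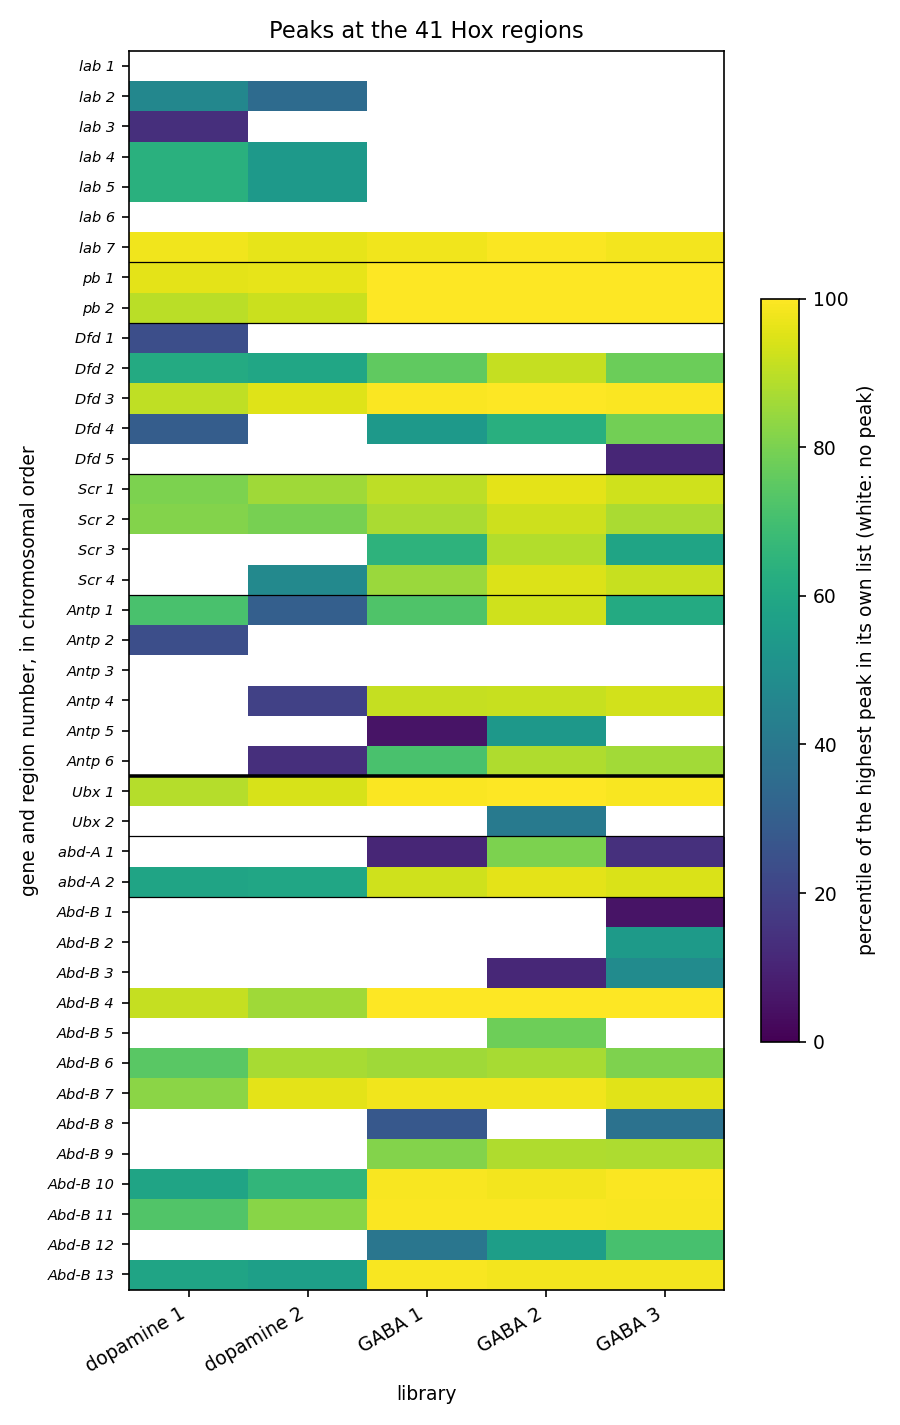
Percentile of the highest overlapping peak in its own list, by fold enrichment, for the 41 Hox regions (rows, in chromosomal order) and the 5 libraries (columns); white means no peak. In lab, 3 regions have a peak in both dopamine libraries only, as do 8.42% of all regions, and lab 4 and lab 5 among them lie under the same peak. In Ubx, abd-A and Abd-B, 9 regions have a peak in at least 1 GABA library and in no dopamine library, 4 of them in a single one. Of all regions, 33.8% have this second pattern.

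The question of the main comparison was whether openness of the Hox regions differed between dopamine and GABA neurons. Of the 16 regions that could be fitted, 9 were higher in GABA and 0 were higher in dopamine (limma, Benjamini-Hochberg adjusted p under 0.05 over all 16601 fitted regions). Over all fitted regions, 27.8% were higher in GABA, 25.3% were higher in dopamine and 53.1% were called in either direction. The count of dopamine-higher regions was also 0 at an unadjusted p under 0.05. The difference, dopamine minus GABA, was negative at 15 of the 16 regions, and its median was -0.68 on the normalized log2 scale, against -0.02 over all fitted regions. In the Antennapedia complex 3 of 8 fitted regions were higher in GABA with a median difference of -0.27, and in the bithorax complex 6 of 8 were, with a median of -0.96. The fold of GABA over dopamine ranged from 1.60 to 2.82 over the 9 called regions, of which 8 were annotated as promoter and 1 as intron. The lowest and highest differences of the 7 regions that were not called were -0.28 and 0.11. The normalized levels of the neuron types did not overlap at 11 of the 16 regions, with GABA above at each, where 35.5% of all fitted regions had GABA above without overlap. Before normalization the fold enrichments did not overlap at 9, again with GABA above, where 24.8% of all fitted regions did so.

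**Figure D3:**
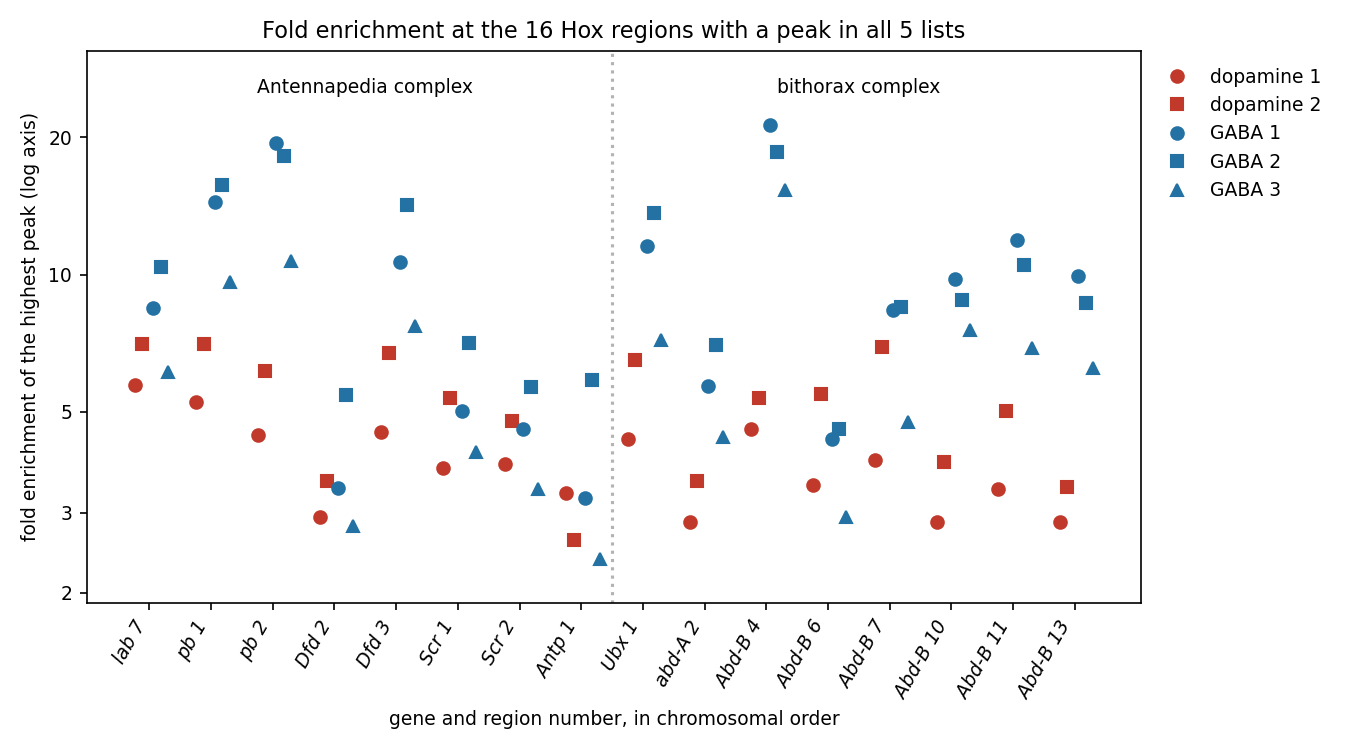
Fold enrichment (log axis) of the highest overlapping peak in each library at the 16 Hox regions with a peak in all 5 lists, before normalization. Red symbols are dopamine libraries, blue symbols are GABA libraries and symbol shape gives the replicate. The GABA symbols lie above both dopamine symbols at 9 regions, among them Abd-B 4 with 15.3 to 21.3 against 4.58 and 5.35.

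**Figure D4:**
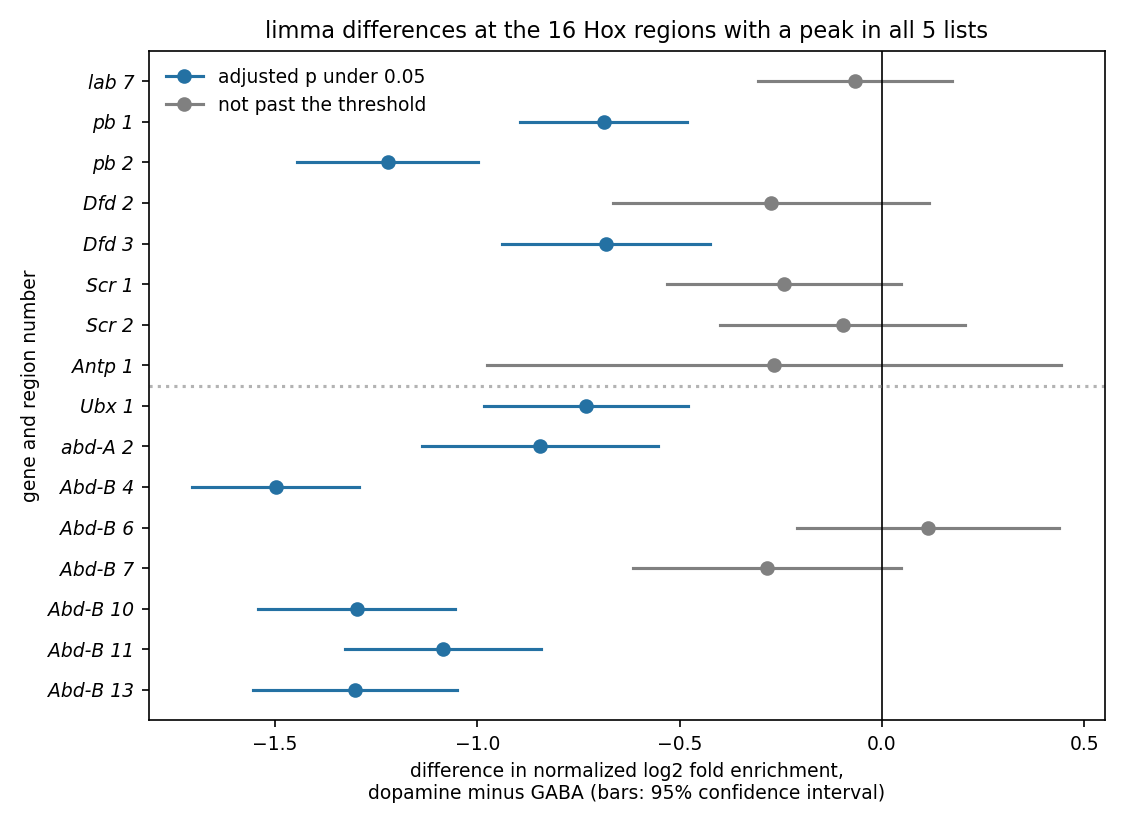
Difference in normalized log2 fold enrichment, dopamine minus GABA, with its 95% confidence interval, at the same 16 regions in chromosomal order (dotted line between the complexes). The 9 blue regions passed an adjusted p of 0.05 in limma and all of these lie below 0, from -0.68 at Dfd 3 to -1.50 at Abd-B 4.

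The leftmost gene of the Antennapedia complex, lab, patterns the intercalary head segment and the tritocerebrum of the embryonic brain (FBgn0002522, 3R from 6661427 to 6678590, minus strand). Its strongest region, lab 7 (6677461 to 6678811), covers the start site and had a mean signal of 967. The fold enrichment there was 5.71 and 7.06 in the dopamine libraries and 8.42, 10.4 and 6.10 in the GABA libraries, which overlapped. After normalization the difference was -0.07 (SE 0.11, adjusted p = 0.64), and its 95% confidence interval ran from -0.31 to 0.17. The call and the direction depend on the scaling, since centring each list on its median gave -0.46 (limma, adjusted p = 0.0080), setting a missing peak to a fold enrichment of 1 also gave -0.46 (adjusted p = 0.0059) and -log10 q gave 0.42 (adjusted p = 0.084). The other regions of lab were weaker, and no GABA list held a peak at them. At lab 2 (6664601 to 6664710, near an alternative start site) the fold enrichment was 2.55 and 2.73, and at lab 4 (6674887 to 6674986) and lab 5 (6675138 to 6675240), which lie in the first intron under the same peak, it was 3.01 and 3.30. A peak was thus present at 71.4% and 57.1% of the lab regions in dopamine and at 14.3% in each GABA library, and lab was the only Hox gene where both dopamine lists exceeded every GABA list in this share, as 16.1% of all genes with a peak did. An exact two-sided permutation test, with p taken as 2 times the smaller one-sided p, gave p = 0.2, the smallest that this form of the test allows with 2 libraries against 3 (10 splits).

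The next gene, pb, had a compact pair of regions at its start site and no other (FBgn0051481, 6707800 to 6742063, minus strand). At pb 2 (6741960 to 6742342), which covers the start site, the fold enrichment was 4.43 and 6.14 in dopamine and 19.5, 18.2 and 10.7 in GABA, so the groups were well separated. The normalized difference was -1.22 (SE 0.11, adjusted p = 8.59e-08), or 2.33-fold higher in GABA. At pb 1 (6741571 to 6741864, 199 bp into the gene) it was 5.26 and 7.06 in dopamine and 14.4, 15.7 and 9.61 in GABA, with a difference of -0.69 (SE 0.10, adjusted p = 1.34e-05). In the GABA lists the peak at pb 2 ranked at the percentiles 99.994, 99.996 and 99.909 of all peaks by fold enrichment, so that a gene with few regions had a peak among the highest of these lists. In the dopamine lists it ranked at 89.5 and 92.0.

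Dfd acts in the maxillary and mandibular segments (FBgn0000439, 6791836 to 6802428, plus strand), and 4 of its 5 regions were at the promoter. The region over the start site, Dfd 3 (6791491 to 6791917, mean signal 721), had a fold enrichment of 4.51 and 6.71 in dopamine and 10.7, 14.2 and 7.73 in GABA. All GABA values were above both dopamine values, and the difference was -0.68 (SE 0.12, adjusted p = 1.52e-04), or 1.60-fold higher in GABA. Upstream of it, Dfd 2 (6790872 to 6791226) had 2.93 and 3.53 in dopamine and 3.40, 5.44 and 2.81 in GABA. These overlapped before normalization and not after it, and the difference of -0.27 did not pass the test (adjusted p = 0.23, 95% confidence interval -0.67 to 0.12).

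At Scr (FBgn0003339, 6823120 to 6849981, minus strand) neither fitted region passed the test. At Scr 1 (6848524 to 6848974, 19 bp from an internal start site, mean signal 519) the fold enrichment was 3.76 and 5.35 in dopamine and 5.02, 7.07 and 4.08 in GABA (difference -0.24, adjusted p = 0.15). At Scr 2 (6849964 to 6850212), over the other start site, it was 3.83 and 4.78 in dopamine and 4.57, 5.65 and 3.38 in GABA (difference -0.10, adjusted p = 0.59). The fold enrichments overlapped at both, while after normalization the levels at Scr 1, 2.09 and 2.18 in dopamine and 2.22, 2.62 and 2.29 in GABA, did not. Upstream of the gene the picture was less even. Scr 3 (6853079 to 6853323) had no peak in dopamine and a fold enrichment of 2.90, 4.83 and 2.33 in GABA. At Scr 4 (6854342 to 6854569) dopamine library 1 had no peak, dopamine library 2 had 3.07, and the GABA libraries had 4.24, 6.44 and 3.91.

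Antp, whose misexpression in the head turns antennae into legs, is the longest of the 8 genes (FBgn0260642, 6896253 to 6999228, minus strand) and had the weakest maximum. Its strongest region by mean signal was Antp 1 (6930414 to 6930816, in an intron) with 280. The fold enrichment there was 3.31 and 2.62 in dopamine and 3.24, 5.86 and 2.37 in GABA, with no separation (difference -0.27, SE 0.31, adjusted p = 0.50). This was the widest error of the 16 regions, with a 95% confidence interval from -0.98 to 0.44. Antp 2 (6932892 to 6933021), 52 bp from the internal start site, had a peak in dopamine library 1 only, at a fold enrichment of 2.18. No Antp region lay at the distal start site. The nearest region, 1361 bp beyond it, was assigned to the noncoding gene lncRNA:CR45899 and had a mean signal of 1023. The nearest peak to this start site was 1374 and 95 bp away in the dopamine lists and 1355, 1334 and 1362 bp away in the GABA lists. In the introns, Antp 4 (6958585 to 6958866) had no peak in dopamine library 1, a fold enrichment of 2.39 in dopamine library 2 and 5.36, 5.49 and 4.17 in GABA. Antp 6 (6973381 to 6973709) showed the same pattern, with 2.28 in dopamine library 2 and 3.18, 4.75 and 3.29 in GABA.

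In the bithorax complex, Ubx (FBgn0003944, 16656623 to 16734426, minus strand) had a single strong region. Ubx 1 (16702787 to 16703251) lies in the last intron, 31175 bp from the start site, with a mean signal of 758. The fold enrichment was 4.36 and 6.49 in dopamine and 11.5, 13.7 and 7.20 in GABA, all GABA values being higher. The difference was -0.73 (SE 0.12, adjusted p = 5.98e-05), or 1.66-fold higher in GABA. The region nearest to the Ubx start site was Ubx 2 (16715670 to 16715843), 18583 bp away, and GABA library 2 alone had a peak at it. From the start site itself the nearest peak of any kind was 14225 and 14305 bp away in the dopamine lists and 29110, 14238 and 1407 bp away in the GABA lists, so that no list had a peak at the Ubx start site. Over the whole Ubx span with 2 kb on each side, peaks of any kind covered more in dopamine, 2.11% and 2.53%, than in GABA, 0.957%, 1.87% and 1.05%. The same held at lab, while at pb, Antp, abd-A and Abd-B every GABA library covered more than both dopamine libraries. At Dfd and Scr the neuron types overlapped. The share of all genes that separate in this way was not computed, so whether the Hox genes differ from other genes in coverage cannot be told.

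At abd-A (FBgn0000014, 16807214 to 16830049, minus strand) the promoter did have a peak. At abd-A 2 (16830074 to 16830370, 25 bp from the start site) the fold enrichment was 2.86 and 3.53 in dopamine and 5.69, 7.02 and 4.39 in GABA. The groups did not overlap, and the difference was -0.85 (SE 0.14, adjusted p = 5.64e-05), or 1.80-fold higher in GABA. The region abd-A 1 (16815865 to 16816004, in an intron) had no dopamine peak and a fold enrichment of 1.79, 3.80 and 1.71 in GABA, of which GABA library 2 stood highest.

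Abd-B, at the end of the bithorax complex, had the most regions and the largest difference (FBgn0000015, 16927212 to 16972236, minus strand). The table gives it 5 start sites that a region was assigned to. Abd-B 4 (16934088 to 16935082), over the start site nearest to the 3′ end of the gene, had the highest mean signal of all Hox regions, 1348, a mean that pools 2 dopamine and 3 GABA libraries. The fold enrichment was 4.58 and 5.35 in dopamine and 21.3, 18.6 and 15.3 in GABA, so that the lowest GABA value was far above both dopamine values. The difference was -1.50 (SE 0.10, adjusted p = 1.49e-08), or 2.82-fold higher in GABA. In each GABA list this peak stood above the 99.99th percentile, at 99.999, 99.998 and 99.997, while in dopamine it stood at 91.0 and 85.7. In the dopamine libraries the fold enrichment at lab 7, 5.71 and 7.06, was above that at Abd-B 4.

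A second cluster of Abd-B regions lies at and beyond the distal end of the gene. Abd-B 10 (16969509 to 16969812) had a fold enrichment of 2.86 and 3.87 in dopamine and 9.76, 8.80 and 7.55 in GABA (difference -1.30, adjusted p = 9.94e-08). Abd-B 11 (16970057 to 16970354) had 3.38 and 5.01 in dopamine and 11.9, 10.5 and 6.89 in GABA (difference -1.08, adjusted p = 5.95e-07). Abd-B 13 (16972586 to 16972968) had 2.86 and 3.41 in dopamine and 9.93, 8.65 and 6.23 in GABA (difference -1.30, adjusted p = 1.42e-07). At all these regions every GABA library was above both dopamine libraries. Beside the distal start site, Abd-B 12 (16972283 to 16972415, 47 bp away) had a peak in the GABA libraries only, with 2.27, 2.60 and 2.59.

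Between these clusters the neuron types were closer at Abd-B 6 and 7, while Abd-B 5, 8 and 9 had peaks in GABA lists only. At Abd-B 6 (16957897 to 16958113), in an intron, the fold enrichment was 3.46 and 5.46 in dopamine and 4.35, 4.59 and 2.94 in GABA, and the difference of 0.11 was the only positive one of the 16 (adjusted p = 0.56). Its neighbour Abd-B 7 (16958414 to 16958632) had 3.91 and 6.94 in dopamine and 8.37, 8.50 and 4.74 in GABA, which overlapped (difference -0.28, adjusted p = 0.14). Without dopamine library 2 it passed the test with a difference of -0.58 (adjusted p = 0.016), but that fit has 1 dopamine library, which is assumed to vary like the GABA libraries. A short way off, Abd-B 9 (16960327 to 16960515), 46 bp from a start site, had no dopamine peak and 3.85, 4.75 and 3.42 in GABA. From that start site the nearest peak was 1669 and 1662 bp away in the dopamine lists and 59, 32 and 57 bp away in the GABA lists. A peak was present at 46.2% of the Abd-B regions in both dopamine libraries and at 69.2%, 76.9% and 92.3% in the GABA libraries, and at Scr and abd-A every GABA list exceeded both dopamine lists in this share too (3 of 8 genes, against 26.1% of all genes with a peak). Among the 2113 other genes with at least 10 regions, the genes whose shares were most like those of Abd-B were fdl, with a distance of 9.98 percentage points over the 5 libraries, and lncRNA:CR45810, with 10.8. The other Hox genes had too few regions for this comparison.

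The highest peak of each gene was also compared by its percentile among all peaks of its own list. A longer list can raise this percentile, and the highest peak of a gene may lie at another region in each library, as for Antp, where it was at Antp 1 in dopamine library 1 and at Antp 4 in GABA library 1. At 7 of the 8 genes every GABA library ranked it above both dopamine libraries, and lab was the exception. Of all genes with a peak in each list, 44.7% had GABA above in this way. With an equal number of peaks kept from each list, the 69464 with the highest fold enrichment, which was chosen after the data were seen, it was again 7 of the 8 genes, and 39.0% of all genes. For Antp the percentiles were 71.3 and 30.1 in dopamine and 91.4, 92.9 and 93.2 in GABA, and for abd-A they were 58.6 and 59.0 in dopamine and 92.7, 95.9 and 94.2 in GABA. For lab they were 98.0 and 96.5 in dopamine and 98.0, 99.3 and 98.1 in GABA, which overlapped. The exact two-sided permutation test in the same form gave p = 0.2 for each of the 7 genes and p = 0.4 for lab.

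**Figure D5:**
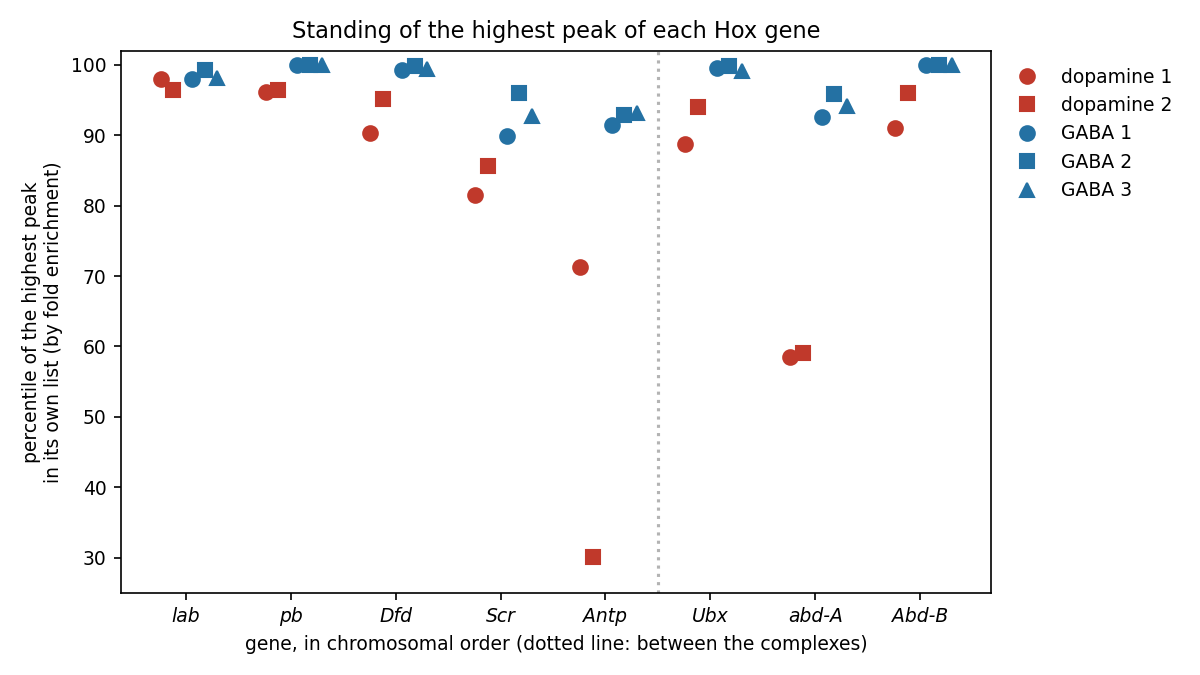
Percentile of the highest peak of each Hox gene in its own list, by fold enrichment, in each library, with genes in chromosomal order. Red symbols are dopamine and blue symbols are GABA libraries. GABA stands above dopamine without overlap at 7 genes, as at Antp (30.1 and 71.3 against 91.4 to 93.2) and abd-A (58.6 and 59.0 against 92.7 to 95.9).

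As a share of its list, the number of Hox peaks overlapped between the neuron types. There were 42 and 43 peaks at Hox regions in the dopamine libraries and 50, 60 and 63 in the GABA libraries, or 6.05 and 6.15 per 10000 peaks of the list in dopamine and 5.95, 7.35 and 5.88 in GABA. At Scr, Antp and Abd-B the GABA lists held more peaks than both dopamine lists (3 of 8 genes, against 33.1% of all genes). For Abd-B the numbers were 13 and 12 in dopamine and 18, 21 and 23 in GABA (exact two-sided permutation test in the same form, p = 0.2). The lists repeat an interval for every summit in it. With each interval counted once, the mean excess of the GABA lists over the dopamine lists, summed over the 8 genes, was 5.17 instead of 15.2 peaks.

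Regions of other genes inside the complexes were counted in the same way. In the bithorax complex 10 further regions could be fitted, of which 8 were higher in GABA and 0 in dopamine, with a median difference of -0.94. In the Antennapedia complex 3 of 9 were higher in GABA and 0 in dopamine, with a median of -0.23. Of all fitted regions, 27.8% were higher in GABA and 25.3% in dopamine. Adjoining regions of lncRNA:CR45559 are counted separately among these 3, though both took the same GABA fold enrichments, 16.2, 14.9 and 9.92. The noncoding RNA genes listed for the complexes had 7 fitted regions, all higher in GABA and all among the 8 just counted in the bithorax complex. Outside that list, lncRNA:TS16, lncRNA:CR45559 and lncRNA:CR42651 had regions higher in GABA. The fitted regions of lncRNA:CR45750, lncRNA:CR46267 and lncRNA:CR43252 were not called. The listed genes include lncRNA:iab8, which runs between abd-A and Abd-B and had 4 such regions, the microRNA gene mir-iab-8 with 2 and lncRNA:bxd, upstream of Ubx, with 1. The strongest of these, at lncRNA:bxd (16763696 to 16764373, mean signal 1284), had a fold enrichment of 5.11 and 7.51 in dopamine and 15.2, 15.2 and 10.4 in GABA (difference -0.69, adjusted p = 1.13e-05). The non-Hox genes zen, bcd and ftz of the Antennapedia complex, which act in the early embryo, had 6 regions and none with a peak in all 5 lists, and zen2 and Ama had no region.

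Genes that act with or on the Hox genes had calls in both directions. So did all fitted regions, of which 27.8% were higher in GABA and 25.3% in dopamine. Of the cofactors exd and hth, whose proteins bind DNA together with Hox proteins, 13 regions could be fitted, 4 higher in GABA and 3 higher in dopamine, all of these at hth. Of the Polycomb group genes, 8 of 39 fitted regions were higher in GABA and 11 in dopamine, with a median difference of 0.10, and 4 of the latter were at ph-p. Of the trithorax group genes, 3 of 41 were higher in GABA and 19 in dopamine, with a median of 0.34, among them 5 at fs(1)h and 3 each at Trl, which encodes the GAGA factor, and trx. Of the head patterning genes oc, ems, btd, tll, cnc, slp1 and slp2, 8 of 20 were higher in GABA and 4 in dopamine, and the latter were all at cnc.

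Marker genes of other cell types were counted likewise, against the same 27.8% and 25.3% of all fitted regions. Of the pan-neuronal genes elav, nSyb, brp, Syt1 and Syx1A, 10 of 28 fitted regions were higher in GABA and 2, both at elav, in dopamine, while 16 were not called. All 3 fitted regions of the cholinergic and glutamatergic genes ChAT, VAChT and VGlut were higher in GABA. The epidermal genes grh, Vajk1 and resilin had 35 regions, of which 26 were at grh. Of the 7 fitted, all at grh, 0 were higher in GABA and 4 in dopamine, and grh also had 13 regions with a peak in both dopamine lists and no GABA list. The other epidermal genes, resilin and Vajk1, had no region with a peak in all 5 lists and no peak in dopamine library 2 or GABA library 2. Their highest peaks stood at the percentiles 4.70 and 18.9 of the list of dopamine library 1 and 56.7 and 56.0 of that of GABA library 3. In GABA library 1 the highest resilin peak stood at 47.6, and Vajk1 had no peak. Of the fat body genes, FASN1 had 4 fitted regions, 0 higher in GABA and 3 in dopamine, and Yp1 had none. The glia genes repo, moody, Eaat1, wrapper and alrm had 3 of 9 in each direction. Photoreceptor genes had 1 of 2 higher in GABA, and the muscle genes had no region with a peak in all 5 lists. A peak was present at 74.3% and 65.7% of the epidermal regions in the dopamine libraries and at 25.7%, 20.0% and 54.3% in the GABA libraries. The part of such differences between the sorted nuclei in the Hox results was not tested.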

How the data were processed

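ATAC-seq was made from sorted head nuclei in 2 dopamine and 3 GABA libraries. The authors trimmed adapters, aligned reads to Release 6 of the genome (BDGP6 per the labels) with Bowtie2, removed duplicates with Picard and called peaks in each library with MACS2. For each peak they deposited a fold enrichment, which is a ratio over background, and the -log10 of the p-value and of the q-value. The authors also deposited a score per peak, a rounded multiple of the -log10 q-value, which was not used. For each region the authors deposited a mean signal (read counts scaled by size factors and pooled over the libraries), which has no spread, an annotation by ChIPseeker, and the log2 fold change, standard error, statistic and p-values of their DESeq2 comparison. These last columns hold the authors' own results and were not used. Read counts per library were not used here, so the count-based test of the study could not be run.

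Peak positions were converted to count from 1. Each region took the highest fold enrichment among peaks that overlap it by at least 1 bp. Log2 values of the 16601 regions with a peak in all 5 lists were quantile normalized and fitted with limma 3.58.1 (R 4.3.3, eBayes with trend and robust), coded dopamine minus GABA, with Benjamini-Hochberg adjustment over all these regions. Percentiles, overlaps and exact permutation tests (two-sided p as 2 times the smaller one-sided p) were computed in Python 3.11.15 (pandas 2.3.3, scipy 1.17.1, numpy 2.4.6), with matplotlib 3.10.9 for the figures. Gene spans are those of RefSeq for Release 6. The fit was tested on simulated data. Read depth cannot be had from peak lists, so no counting interval is given. The study reports a percentage of duplicate reads that was higher in both dopamine libraries than in any GABA library. It was highest in dopamine library 2, and its part in the results was not tested. Regions were named by rule: nearest to a start site, highest mean signal, past the test, or called in one neuron type only. Abd-B 6, 7 and 8, Dfd 2, Antp 4 and 6, Scr 4 and single regions of other genes were named after their values were seen. The members and gene lists were chosen with earlier results of these data known. Alternatives were other normalizations, measures, filters, thresholds, windows, the replicate number as a block, and leaving out each library.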

Additional observations from a re-analysis of the deposited data

How the results depend on the processing

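The 9 Hox regions called higher in GABA kept their direction and stayed past the threshold under all 13 alternatives of the fit, and their highest adjusted p among these was 0.013. Their number was 11 with each list centred on its median (30.6% of all fitted regions), 10 with the replicate block and 18 of 38 when a missing peak was set to a fold enrichment of 1 (26.7% of all), which also gave 3 higher in dopamine (17.0% of all) and a median over all regions of -0.41. Leaving out each library in turn gave 9 to 12 higher in GABA and 0 in dopamine. It was 9 without each of the GABA libraries, 12 of 19 without dopamine library 1 (19.9% of all) and 10 of 17 without dopamine library 2 (20.0%), where the spread comes from the GABA libraries and the lone dopamine library is assumed to vary like them. Replicate numbers come from the titles, and the labels do not say whether same-numbered libraries were processed together. Deviations from the group mean correlated between same-numbered libraries with r = -0.03 and 0.05. These values cannot decide the question, since the deviations of the 2 dopamine libraries mirror each other (r = -1). The block called 4545 regions higher in GABA and 4152 higher in dopamine, against 4608 and 4204 in the main fit.

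Of the 7 regions not called, lab 7 passed the test with median centring and with a missing peak set to 1 (-0.46 in both), and Abd-B 7 did so with the same alternatives (-0.52 in both), with the replicate block (-0.40) and without dopamine library 2 (-0.58). Differences that were not called changed sign at lab 7 (0.42 with -log10 q, -0.18 to 0.032 over the left-out libraries), Scr 2 (0.25 with -log10 q), Antp 1 (-0.53 to 0.085 over the left-out libraries) and Abd-B 6 (-0.013 to 0.29). By -log10 q the percentile of the highest lab peak, GABA minus dopamine, was -1.49 instead of 1.22 points. In that ranking 6 instead of 7 genes stood higher in GABA, as did 45.3% of all genes with a peak in each list. With regions counted by gene span and 2 kb, 25 of 60 (41.7%, against 20.6%) had a peak in all 5 lists. Where a peak had to cover 50% of a region, 7 regions were GABA-only, and leaving out each library gave 3 to 6 dopamine-only and 5 to 7 GABA-only regions. With intervals counted once, the excess of GABA peaks was 5.17. The cause of these changes was not tested. Presence in a list depends on the calling threshold, and with 2 and 3 libraries no permutation test can pass 0.05.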
